A study of Mus musculus with 2 samples.

Results

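The genes described here are 9 transcription factor genes of the myogenic lineage other than Pax7: Myf5, Myod1, Myog, Myf6, Mef2a, Mef2c, Mef2d, Six4 and Pax3. They were chosen by name, with earlier results of these data known, and all 9 were among the 32285 genes of both deposited matrices. The study compared muscle stem cells (MuSCs) of the mouse plantaris after a sham operation with MuSCs after 5 days of mechanical overload (MOV), in which synergist muscle is cut away so that the plantaris carries more load. RNA of single cells was read at the 3′ end in droplets, and each distinct RNA molecule was counted once by its molecular identifier (UMI). Each condition was 1 library, so no difference given here has a replicate check, no p-value is printed, and every interval is a 95% interval that covers counting error only.

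Both groups were Pax7rtTA; TRE-H2B-GFP mice, 26 weeks old, given doxycycline at 2.0 mg/ml in sucrose-sweetened drinking water for 2 weeks. In these mice the Pax7 locus drives a doxycycline-dependent activator, which switches on a green nuclear histone label, and the sham animals carried both alleles and the drug too. The sham group had the incision and a probed tendon without loss of muscle. The labels speak of 1 mouse where the methods speak of several, so animals and libraries cannot be told apart. The protocol describes a sort on VCAM without CD31, CD45 and SCA1, whereas the design text names the green label, and neither sort kept out all other cells, as the groups given here show.

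Skeletal muscle identity rests on a small set of DNA-binding proteins. Myf5, MyoD (Myod1), myogenin (Myog) and MRF4 (Myf6) are basic helix-loop-helix factors that pair with E proteins and bind E-boxes in muscle genes. Myf5 and MyoD mark the myoblast and its activated precursors, myogenin is needed for terminal differentiation, and MRF4 is a factor of differentiated fibres. MEF2 proteins are MADS-box factors that bind AT-rich sites beside E-boxes and work with the myogenic factors on muscle promoters, although MEF2 genes are also used in many other tissues. Proteins of the Six4 family act with Eya cofactors upstream of the myogenic factors, and Pax3, the closest relative of Pax7, acts in the embryonic myotome and in part of the adult stem cells.

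Myf5 (ENSMUSG00000000435, chr10:107482908-107486134, minus strand) and Myf6 (ENSMUSG00000035923, chr10:107492853-107494737, minus strand) lie next to each other in GRCm38, 6718 bases apart with 0 annotated genes between them. Myod1 (ENSMUSG00000009471) lies at chr7:46376474-46379099 and Myog (ENSMUSG00000026459) at chr1:134289989-134292548, both on the plus strand. The RefSeq table of promoter windows for GRCm38.p6, which reaches from 250 bases before to 50 bases after each start of transcription, held 9 windows of 6 of the 9 members. Myod1, Myf6 and Pax3 had no entry. The part of the window before the start is printed for Myog and Myf5, since these factors were highest in different groups of the MOV cells. Capitals mark matches, on either strand, to the E-box CANNTG, to the MEF2 letters (CTA, any 4 bases, TAG) or to the Six4 letters TCAGGTT, and none of the marked matches overlap.
Myog, chr1:134289754-134290003, plus strand: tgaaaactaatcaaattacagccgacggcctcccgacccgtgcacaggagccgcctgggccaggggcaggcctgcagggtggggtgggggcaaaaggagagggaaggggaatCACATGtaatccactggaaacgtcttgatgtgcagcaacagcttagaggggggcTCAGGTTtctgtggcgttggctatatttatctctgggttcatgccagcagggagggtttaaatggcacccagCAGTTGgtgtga
Myf5, chr10:107486135-107486384, minus strand: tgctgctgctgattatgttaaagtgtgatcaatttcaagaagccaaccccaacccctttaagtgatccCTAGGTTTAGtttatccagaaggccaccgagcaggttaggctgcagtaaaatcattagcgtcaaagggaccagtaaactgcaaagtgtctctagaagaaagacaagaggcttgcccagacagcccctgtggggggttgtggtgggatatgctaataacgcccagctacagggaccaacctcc

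The Myog window held 2 E-boxes, whose first bases lay at -138 and -12 from the start, and the Six4 letters at -84, and no MEF2 letters. The Myf5 window held the MEF2 letters at -182, and neither an E-box nor the Six4 letters. The MEF2 letters leave the middle bases open and must end in TAG. The Myf5 match CTAGGTTTAG has GG in its middle. The AT-rich stretch ctatatttat of the printed Myog window has another ending and was not counted. These letters therefore cannot decide which of the windows holds a MEF2 site. Over all 32851 windows of the table, 72.3% held an E-box, 3.69% the MEF2 letters and 4.07% the Six4 letters, so an E-box in such a window is common. Among the other members, Mef2a had the MEF2 letters at -2, the 3 windows of Mef2c held 2, 0 and 1 E-boxes and the first of them the Six4 letters, 1 of the 2 windows of Six4 held the Six4 letters at -97, and Mef2d held none of the 3 motifs. These matches describe letters and no binding was measured.

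Cells under 10% mitochondrial UMIs that were not scored as doublets were placed in groups by marker UMIs. The sham library gave 734 such cells of 1100 (7302661 UMIs in all) and the MOV library 2985 of 3854 (88498487 UMIs). Pax7 cells (66 sham, 566 MOV) held at least 1 Pax7 UMI, and cycling Pax7 cells (8 sham, 501 MOV) also held 3 or more UMIs of the division genes Mki67 and Top2a. Myog cells (1 sham, 168 MOV) passed a limit on Myog itself, and Myl4/Myh3 cells (1 sham, 123 MOV) passed one on the embryonic light chain Myl4 and the embryonic heavy chain Myh3. Fibre droplets (425 sham, 35 MOV) were those led by the adult fast myosins Myh1, Myh2 and Myh4, and Pdgfra cells (27 sham, 408 MOV) were stromal cells. The remaining 206 sham and 1184 MOV cells met no rule. Since the Myog and Myl4/Myh3 rules took cells first, they set Myog in the Myog cells and capped it in the Pax7, cycling Pax7 and Pdgfra cells.

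The groups carried the markers of their names, in sums that include genes of the group rules, so the rules partly fix these levels. The summed level of 6 fibro-adipogenic markers, in CPM (the UMIs of the genes over all UMIs of the group, times 1000000), was 28357 CPM in MOV Pdgfra cells and 1910 CPM in MOV Pax7 cells. A summed level of 9 fibre genes was 159102 CPM in sham fibre droplets and 125930 CPM in MOV fibre droplets. A myogenic stem cell list was at 3965 CPM in sham and 3060 CPM in MOV Pax7 cells, and at 30.7 CPM in sham fibre droplets. The 6 markers of cycling cells summed to 2142 CPM in MOV cycling Pax7 cells, 1111 CPM in Myog cells, 642 CPM in Myl4/Myh3 cells and 106 CPM in Pax7 cells. Among these markers Mki67 (244 CPM in cycling Pax7 cells) and Top2a (578 CPM) set the cycling rule, which also capped them in the Pax7 cells. MOV fibre droplets also held 1548 CPM of 6 immune markers and were shallow, with a median of 1776 UMIs against 4149 in sham. A level summed over a group cannot tell fewer cells with the RNA from less RNA in each cell.

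The libraries shared 44 cell barcodes, far from evenly filled: the deeper copy held a median of 47.4 times the UMIs of the shallower one, and 39 of the deeper copies were in the sham library. Of the 35 MOV fibre droplets, 10 were shallower copies of sham barcodes, and the 25 others gave Myf6 at 418 CPM, Mef2c at 444 CPM, Myod1 at 64 CPM and Myog at 29.9 CPM, against 419, 436, 62.2 and 29 CPM with all 35. Of the 8 sham cycling Pax7 cells 5 were shared, as were the only sham Myog cell and the only sham Myl4/Myh3 cell. The 3 unshared sham cycling cells gave Myod1 at 1642 CPM against 742 CPM in all 8, so the sham cycling level of Myod1 is not a stable value. Leaving the shared barcode out of the sham Pax7 cells moved Myod1 from 731 to 760 CPM and Myf5 from 207 to 215 CPM.

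Myf5 was highest in Pax7 cells of both libraries and lower in all other groups. In the MOV library its level was 233 CPM (224–242) in Pax7 cells, 127 CPM (123–132) in cycling Pax7 cells, 69.6 CPM (63.1–76.6) in Myl4/Myh3 cells and 60 CPM (54.5–65.9) in Myog cells. The intervals of the last pair overlap. Fibre droplets gave 8.3 CPM (1–30) from 2 UMIs and Pdgfra cells 4.78 CPM (3.76–5.99), where 1 cell held 15 of the 75 UMIs, and these intervals overlap too. In the sham library Myf5 was at 207 CPM (172–247) in Pax7 cells and 83.9 CPM (58.1–117) in cycling Pax7 cells, with 1 UMI in all 425 fibre droplets and 0 UMIs in Pdgfra cells, where 3 counts would make 7.27 CPM. The Pax7 cell level hardly differed between the libraries, and the log2 ratio of MOV over sham was 0.17 (-0.09 to 0.45). Single cells spread widely around it: the median MOV Pax7 cell held 146 CPM, the quartiles were 45.7 and 314 CPM and the highest cell 2993 CPM.

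Myod1 ran the other way along the MOV cells. It was at 103 CPM (97.5–109) in Pax7 cells, 190 CPM (185–196) in cycling Pax7 cells, 278 CPM (266–290) in Myog cells and 264 CPM (252–278) in Myl4/Myh3 cells, the last pair with overlapping intervals. Fibre droplets gave 62.2 CPM (34.8–103) from 15 UMIs, which reaches the Pax7 cell interval, and Pdgfra cells 4.33 CPM (3.36–5.49). The median single cell was at 0 CPM in Pax7 cells, 111 CPM in cycling Pax7 cells and 212 CPM in Myog cells, with 151 CPM in Myl4/Myh3 cells. In the sham library Pax7 cells held 731 CPM (664–804) and cycling Pax7 cells 742 CPM (661–831), with overlapping intervals, fibre droplets 26.4 CPM (20.7–33.2) and Pdgfra cells 0 UMIs. MyoD is the factor most tied to activation of the stem cell, and the sham value lay above every MOV group.

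**Figure D1:**
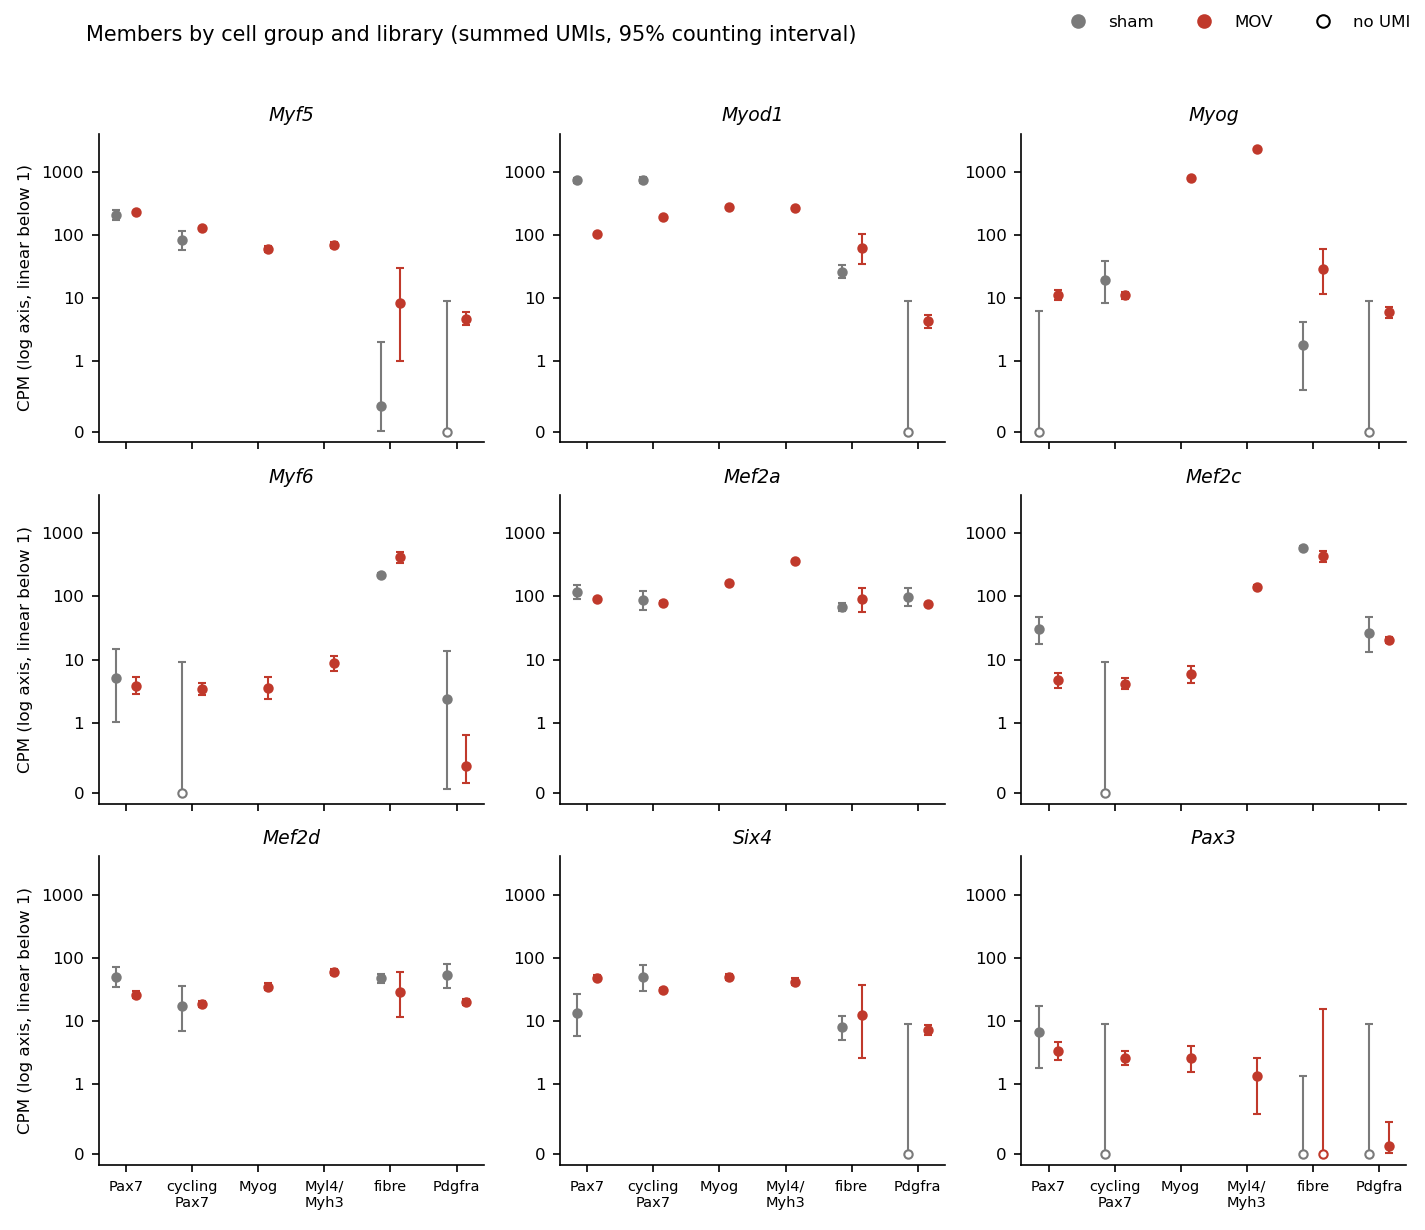
Summed level (CPM, log axis that is linear below 1) of the 9 genes in each cell group, sham in grey and MOV in red. Points are group sums, bars are 95% counting intervals and open points mark groups without a UMI; the Myog and Myl4/Myh3 groups are drawn for MOV only. Myf5 is highest in Pax7 cells, Myog in Myl4/Myh3 cells at 2283 CPM, and Myf6 and Mef2c in fibre droplets of both libraries.

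The sham Myod1 level rested on few cells. Of the 435 Myod1 UMIs in the 66 sham Pax7 cells, 5 cells held 234 (53.8%) and the top cell 62 (14.3%), and the median cell held 0 CPM while the highest held 7605 CPM. In the 566 MOV Pax7 cells the top 5 held 13.7%. Sham Pax7 cells also had a higher median mitochondrial share (6.07% against 3.17%), a higher sum of 6 immediate-early genes such as Fos and Jun (3585 against 2197 CPM), a higher fibre gene sum (3765 against 670 CPM) and a lower median depth (7862 against 17168 UMIs). Myod1 moved with the mitochondrial share within the sham library: the 47 cells at 5% or more held 1099 CPM (992–1215) and an immediate-early sum of 5199 CPM, and the 19 cells below 5% held 205 CPM (152–270) and 1272 CPM. The fibre gene sum ran the other way, at 1759 CPM in the 47 and 6639 CPM in the 19 cells. A Myod1 UMI was found in 46.8% of the 47 and 42.1% of the 19 cells. In MOV the 536 Pax7 cells below 5% were at 105 CPM. The part of any of these in the difference between the libraries was not tested.

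Between the Pax7 cells of the libraries, Myod1 was thus 7.08-fold lower in MOV (log2 ratio -2.82, -2.98 to -2.66), and 5 of the 9 members lay past 2-fold. Six4 and, as a bound, Myog were higher, against 17.4% of 10998 genes tested, and Myod1, Mef2c and Pax3 were lower, against 10.5%. Six4 was at 13.5 CPM (5.81–26.5, 8 UMIs in 6 cells) in sham and 48.2 CPM (44.2–52.4) in MOV, a log2 ratio of 1.84 (0.85 to 3.06). Myog had 0 UMIs in sham Pax7 cells, where 3 counts would make 5.04 CPM, and 11.2 CPM (9.36–13.4) in MOV, which is at least 2.23-fold higher. The Myog rule had removed cells with high Myog from both groups, so this value describes what the rule left, and it was no longer past 2-fold in 3 of 14 other settings, at 0.00 with a 5% mitochondrial limit, 0.81 with looser gates and 0.98 by median of ratios. Mef2c was at 30.3 CPM (17.9–47.8) in sham, from 18 UMIs of which 5 cells held 83.3%, and at 4.77 CPM (3.59–6.23) in MOV. Pax3 rested on 4 sham UMIs in 3 cells, and its interval of -2.48 to 0.95 covers no difference. Mef2d, at 50.4 CPM (34–72) and 26.2 CPM (23.3–29.3), lay just inside 2-fold with a log2 ratio of -0.95, and Mef2a, Myf5 and Myf6 lay within 2-fold too. The median of all genes tested was 0.14 in this comparison. Among cells below 5% mitochondrial UMIs, with 19 sham cells left, only 2 members lay past 2-fold and the log2 ratio was -0.96 for Myod1 and 0.71 for Six4.

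**Figure D2:**
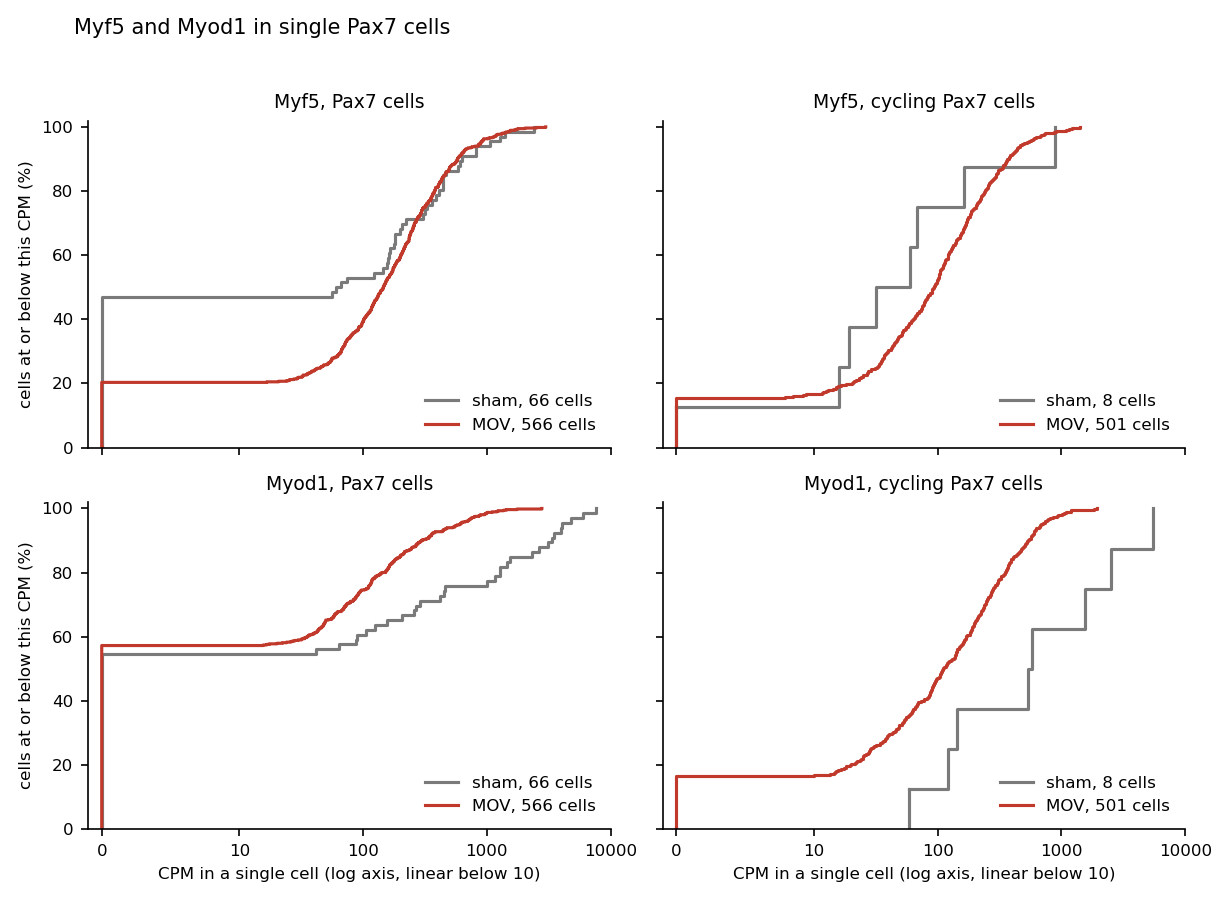
Cumulative share of single cells (percent) against the cell's own level of Myf5 or Myod1 (CPM, log axis that is linear below 10), for Pax7 cells (66 sham, 566 MOV) and cycling Pax7 cells (8 sham, 501 MOV). The sham Myod1 curve starts above 50% of cells at 0 and reaches 7605 CPM, whereas the MOV Myf5 curve of Pax7 cells crosses its middle at 146 CPM.

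Detection in single cells depends on depth, so every cell was thinned to 4000 UMIs for shares, and cells below that were left out (5 sham and 4 MOV Pax7 cells, 1 MOV cycling Pax7 cell, 5 Myog and 13 Myl4/Myh3 cells of MOV). Pdgfra cells of MOV, which should lack the myogenic factors, served as a rough background, although 18 of all 408 also held Pax7. At this depth 1.48% of 406 held a Myf5 UMI, 1.48% a Myod1 UMI, 3.2% (1.72–5.41) a Myog UMI and 3.45% a Six4 UMI. Without thinning these shares were 7.35%, 11%, 21.8% and 19.1% at a median of 37020 UMIs. Of MOV Pax7 cells, whose median was 17168 UMIs, 48.4% held Myf5 and 22.6% Myod1, which lies far above those levels, and 79.7% and 42.8% did without thinning. Myog was found in 5.69% (3.93–7.94) of them and in 18.7% without thinning. The thinned shares of the Pax7 and Pdgfra cells have overlapping intervals, as do the unthinned ones (15.6–22.2 and 17.9–26.1), and so do the shares of 10.8% (8.2–13.8) and 8.06% (5.58–11.2) at 10000 UMIs. The summed level was higher in Pax7 cells, at 11.2 CPM (9.36–13.4) against 6.05 CPM (4.89–7.39), both capped by the Myog rule. The Myog rule had already taken out Pax7-holding cells with high Myog, since 104 of the 168 Myog cells held Pax7. These values thus describe only the cells that the rule left. In those cells the shares overlap, the summed levels differ beyond counting error, and the part of free RNA was not tested.

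Most cells in which either early factor was found held 1 of them at this depth. Both Myf5 and Myod1 were found in 8.9% (6.68–11.6) of MOV Pax7 cells, Myf5 alone in 39.5%, Myod1 alone in 13.7% and neither in 37.9%. In MOV cycling Pax7 cells both were found in 12.6% (9.82–15.8), Myf5 alone in 22.4% and Myod1 alone in 31.4%. The larger single class at this depth thus changed from Myf5 to Myod1. At 10000 UMIs these cycling cells held both in 34.7%, Myf5 alone in 21.5% and Myod1 alone in 26.6%. Without thinning, at a median of 37302 UMIs, the shares were 70.9%, 13.6% and 12.6%, so most of these cells held both. Myod1 was found in 18.4% (14–23.5) of MOV Pax7 cells with Myf5 and in 26.6% (21.6–32) of those without, and in cycling Pax7 cells in 36% (28.9–43.6) with and 48.3% without. With cells thinned to 4000 UMIs, the share was lower among cells with Myf5 in both groups, although the intervals overlap. In cycling Pax7 cells this order was not kept at greater depth. Of those with Myf5 at 10000 UMIs, 171 held Myod1 and 106 did not, against 131 and 85 without Myf5. Unthinned counts were 355 and 68, against 63 and 15. MOV Pax7 cells kept the order, with 109 and 239 against 64 and 89 at 10000 UMIs. Their unthinned counts were 183 and 268, against 59 and 56. Of 61 sham Pax7 cells thinned to 4000 UMIs, 18% (9.36–30) held both, with 26.2% Myf5 alone and 21.3% Myod1 alone. Myod1 was found in 40.7% of these cells with Myf5 and 38.2% of those without. Without thinning both were found in 24.2% of sham and 32.3% of MOV Pax7 cells (the reverse order of that at equal depth), so no order between the libraries is read from these shares. Only 1 of 406 MOV Pdgfra cells held both.

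**Figure D3:**
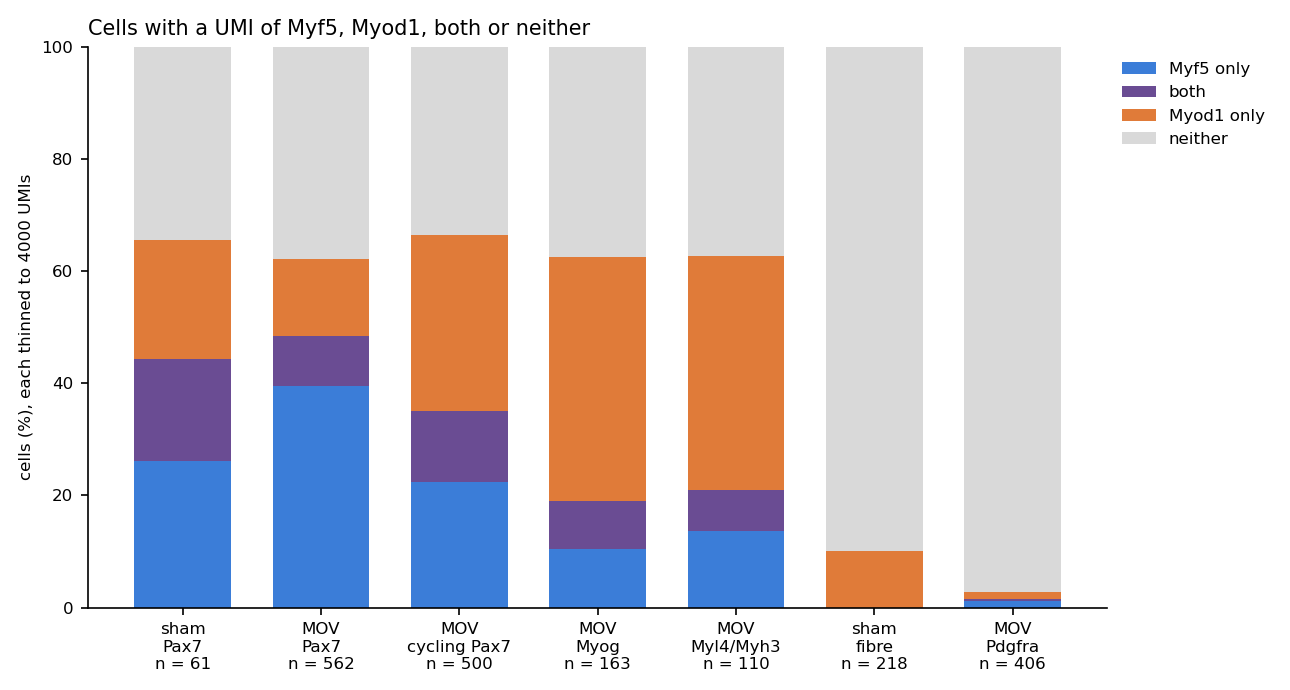
Stacked bars of the percent of cells with a UMI of Myf5 only, of both genes, of Myod1 only or of neither after thinning to 4000 UMIs, for 61 sham Pax7 cells, 562 MOV Pax7 cells, 500 MOV cycling Pax7 cells, 163 Myog cells, 110 Myl4/Myh3 cells, 218 sham fibre droplets and 406 MOV Pdgfra cells. Myf5 alone is the larger single class in MOV Pax7 cells (39.5%) and Myod1 alone in Myog cells (43.6%).

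Against MOV Pax7 cells, no member lay past 2-fold in cycling Pax7 cells, where 9.07% of 12590 genes were higher and 7.27% lower. The nearest were Myod1, with a log2 ratio of 0.88 (0.79 to 0.97), and Myf5, with -0.87 (-0.95 to -0.80). Six4 (-0.63, -0.80 to -0.47) and Mef2d (-0.50, -0.71 to -0.28) were lower within 2-fold, and Myog was level (-0.02, -0.34 to 0.30). Pax7 itself was at 137 CPM in Pax7 cells and 73.6 CPM in cycling Pax7 cells, which the depth of the cells affects because a single UMI admits a cell. Among the Pax7 cells that held 1 or 2 Mki67 or Top2a UMIs (126 cells), Myf5 was at 177 CPM and Myod1 at 129 CPM, against 256 and 92.9 CPM in the 440 cells with none, which is the same order at a lower level of division genes.

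Most Myog RNA lay in the committed cells of MOV. Of the 20157 Myog UMIs of the MOV library, Myl4/Myh3 cells held 68.2% and Myog cells 28.4%, which their rule partly fixes. Its level was 2283 CPM (2245–2322) in Myl4/Myh3 cells, whose rule did not use Myog, and 787 CPM (767–808) in Myog cells. Fibre droplets held 29 CPM (11.7–59.8) from 7 UMIs, Pax7 cells 11.2 CPM (9.36–13.4), cycling Pax7 cells 11.1 CPM (9.72–12.5) and Pdgfra cells 6.05 CPM (4.89–7.39), and from fibre droplets to cycling Pax7 cells each interval overlaps the next. Within the Myl4/Myh3 cells the quartiles were 134 and 3681 CPM, the median 1773 and the highest cell 9602, and 84.6% of cells held a UMI. The sham library had 72 Myog UMIs in all, of which 56 were in its only Myog cell. The sham cycling Pax7 cells held 8, of which 6 were in 1 cell, and the 425 fibre droplets held 5.

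In Myog cells of MOV, 1 member was higher than in Pax7 cells and 1 lower past 2-fold among the 8 that the rule did not use, against 8.24% and 9.77% of 11761 genes tested, so the count is near the background. Myod1 was 2.69-fold higher (log2 ratio 1.43, 1.32 to 1.53) and Myf5 3.89-fold lower (-1.96, -2.11 to -1.81). Mef2a was higher by 0.84 (0.72 to 0.96) and Mef2d by 0.41 (0.16 to 0.65), while the intervals of Mef2c, Six4, Myf6 and Pax3 covered no difference. At 4000 UMIs 52.1% (44.2–60) of the 163 Myog cells held Myod1, 19% Myf5, 43.6% Mef2a, 19.6% Six4 and 12.3% (7.66–18.3) Pax7. Without thinning 89.9% held Myod1 and 61.9% Pax7.

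Division genes were found beside Myog in single cells. At 4000 UMIs 38.7% (31.1–46.6) of the Myog cells held Mki67 or Top2a, and 64.3% did without thinning. MOV Pdgfra cells held them in 34% (29.4–38.8) at the same depth and with a summed Mki67 level of 96 CPM. No group of the MOV library gave a background share of these genes, since the Pax7 cells, at 2.67%, were chosen for few of their UMIs and only 12 fibre droplets were deep enough. Sorted by their Mki67 and Top2a UMIs into 70 cells with 3 or more, 38 with 1 or 2 and 60 with none, the Myog level, itself part of the rule for these cells, was 509, 914 and 1352 CPM and that of Cdkn1c, an inhibitor of cell cycle kinases, was 832, 1448 and 2773 CPM. Mymk, which encodes the fusion protein myomaker, was at 87.5, 135 and 270 CPM. Cdkn1a, another inhibitor of these kinases, had no such order at 554, 302 and 624 CPM. Myod1 ran opposite to Myog at 304 CPM (287–321), 262 CPM and 229 CPM (207–253). Myf5 ran the same way as Myog, at 50.7, 65.8 and 77.7 CPM. Depth moved with this split, since the median cell held 51871, 35776 and 25599 UMIs, and a fixed limit of UMIs admits a deeper cell more readily. The part of depth was not tested.

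The same split of the 123 Myl4/Myh3 cells (29, 26 and 68 cells) gave the same order for Myog. Its level was 1633, 2248 and 2910 CPM, that of Mef2c 66.6, 144 and 213 CPM and that of Mef2a 317, 378 and 395 CPM. Mymk followed it too at 516, 664 and 1009 CPM. Myod1 had no such order at 253, 306 and 251 CPM. Nor had Cdkn1c at 1273, 2766 and 2423 CPM or Cdkn1a at 1144, 893 and 1205 CPM. Median depths were 78491, 57041 and 35402 UMIs, again highest in cells with more division gene UMIs.

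Against Myog cells, Myl4/Myh3 cells of MOV were higher past 2-fold in 3 of the 8 members, where 6.41% of 11245 genes were higher, and lower in none, where 4.00% were lower. Mef2c was 24.1-fold higher, at 143 CPM (133–153) against 5.92 CPM (4.28–7.97), with 4.59 (4.15 to 5.07) as its log2 ratio. Mef2a was at 362 CPM (347–378) against 161 CPM (152–171), and its log2 ratio was 1.17 (1.07 to 1.27). Myf6 was at 8.81 CPM (6.6–11.5) against 3.58 CPM (2.34–5.24), its log2 ratio being 1.30 (0.60 to 2.04), and 1 Myl4/Myh3 cell held 12 of the 53 UMIs. Mef2d was higher within 2-fold (0.76, 0.53 to 1.00), and Myod1 was level (-0.07, -0.17 to 0.02). Myf5 was close to level as well (0.21, 0.02 to 0.41), and Six4 (-0.24, -0.48 to -0.00) and Pax3 (-0.98, -2.38 to 0.28) lay within 2-fold.

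Within Myl4/Myh3 cells Myog was found less in cells with Myf5 or Pax7 and more in cells with Myod1 or Mef2c. At 4000 UMIs Myog was found in 34.8% (16.4–57.3) of the 23 cells with Myf5 and 81.6% (71.9–89.1) of the 87 without, and in 21.4% (4.66–50.8) of the 14 cells with Pax7 and 79.2% (69.7–86.8) of the others. It was found in 87% (75.1–94.6) of cells with Myod1 and 57.1% (43.2–70.3) of those without. Mef2c was found in 24.5% (16.8–33.7) of the 110 cells, and Myog in 92.6% (75.7–99.1) of those with Mef2c against 65.1% (53.8–75.2) of those without. The Myl4/Myh3 rule overlaps others: 91 of its 123 cells also met the Myog limit, 55 held Pax7 and 19 met the cycling limit. Of the 168 Myog cells 104 held Pax7 and 48 met the cycling limit.

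Myf6 and Mef2c were highest in fibre droplets. Myf6, the gene of MRF4, was at 220 CPM (203–238) in sham fibre droplets, which held 608 of its 671 UMIs in that library (90.6%). In MOV fibre droplets it was at 419 CPM (341–509), where 1 droplet held 32 of 101 UMIs. Elsewhere in MOV it was at 8.81 CPM in Myl4/Myh3 cells, 3.89 CPM (2.83–5.22) in Pax7 cells, 3.58 CPM in Myog cells, 3.46 CPM (2.74–4.32) in cycling Pax7 cells and 0.382 CPM (0.14–0.832) in Pdgfra cells, and the middle 3 have overlapping intervals. In sham Pax7 cells it had 3 UMIs. Myf6 thus lay far apart from its neighbour on the chromosome, since sham fibre droplets held 1 UMI of Myf5.

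Mef2c, a MEF2 gene used in muscle and in many other tissues, was at 589 CPM (561–619) in sham fibre droplets, which held 85.3% of its 1912 UMIs in that library, and at 436 CPM (356–527) in MOV fibre droplets. Next in MOV came Myl4/Myh3 cells at 143 CPM and then Pdgfra cells at 20.7 CPM (18.5–23.1), above Myog cells at 5.92 CPM, Pax7 cells at 4.77 CPM and cycling Pax7 cells at 4.17 CPM (3.37–5.11), which overlap. Among 218 sham fibre droplets of 4000 UMIs (207 were left out), 79.4% held Mef2c, 50.5% Myf6 and 37.2% both, and 76.7% and 49.4% of all 425 held Mef2c and Myf6. Myf6 was found in 46.8% of droplets with Mef2c and 64.4% of those without. Myod1 was found in 22 of these droplets (10.1%) and Myf5 in 0, an upper limit of 1.68% for droplets with a Myf5 UMI at this depth, and at 10000 UMIs 1 of 88 droplets held one. Only 12 of the 35 MOV fibre droplets were deep enough, and 66.7% of them held Mef2c and 50% Myf6.

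Against Pax7 cells of the same library, 2 of 7 members tested were higher and 2 lower in sham fibre droplets, where 27.5% of 7175 genes were higher and 43.3% lower, so the counts lie near the background. Mef2c was 19.5-fold higher (log2 ratio 4.28, 3.62 to 5.04) and Myf6 higher by 5.44 (3.89 to 7.73), and Myod1 lower by a log2 ratio of -4.79 (-5.17 to -4.43) and Myf5 of -9.16 (-14.48 to -6.66). Myog and Pax3 had too few UMIs. In MOV 3 members were higher and 2 lower, where 14.4% of 11004 genes were higher and 26.9% lower. Myf6 was higher by 6.75 (6.23 to 7.30) and Mef2c by 6.51 (6.02 to 7.01). Myog, at 1.37 (0.03 to 2.46), rested on 7 UMIs and was compared with Pax7 cells that its own rule had cleared of high Myog, so nothing is read from it. The value of Myf5 (-4.81) rested on 2 and that of Six4 (-1.95) on 3 UMIs of the droplets. Myod1 lay within 2-fold in MOV at -0.73 (-1.57 to -0.00). The median of all genes tested was -0.54 in sham and -0.06 in MOV.

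**Figure D4:**
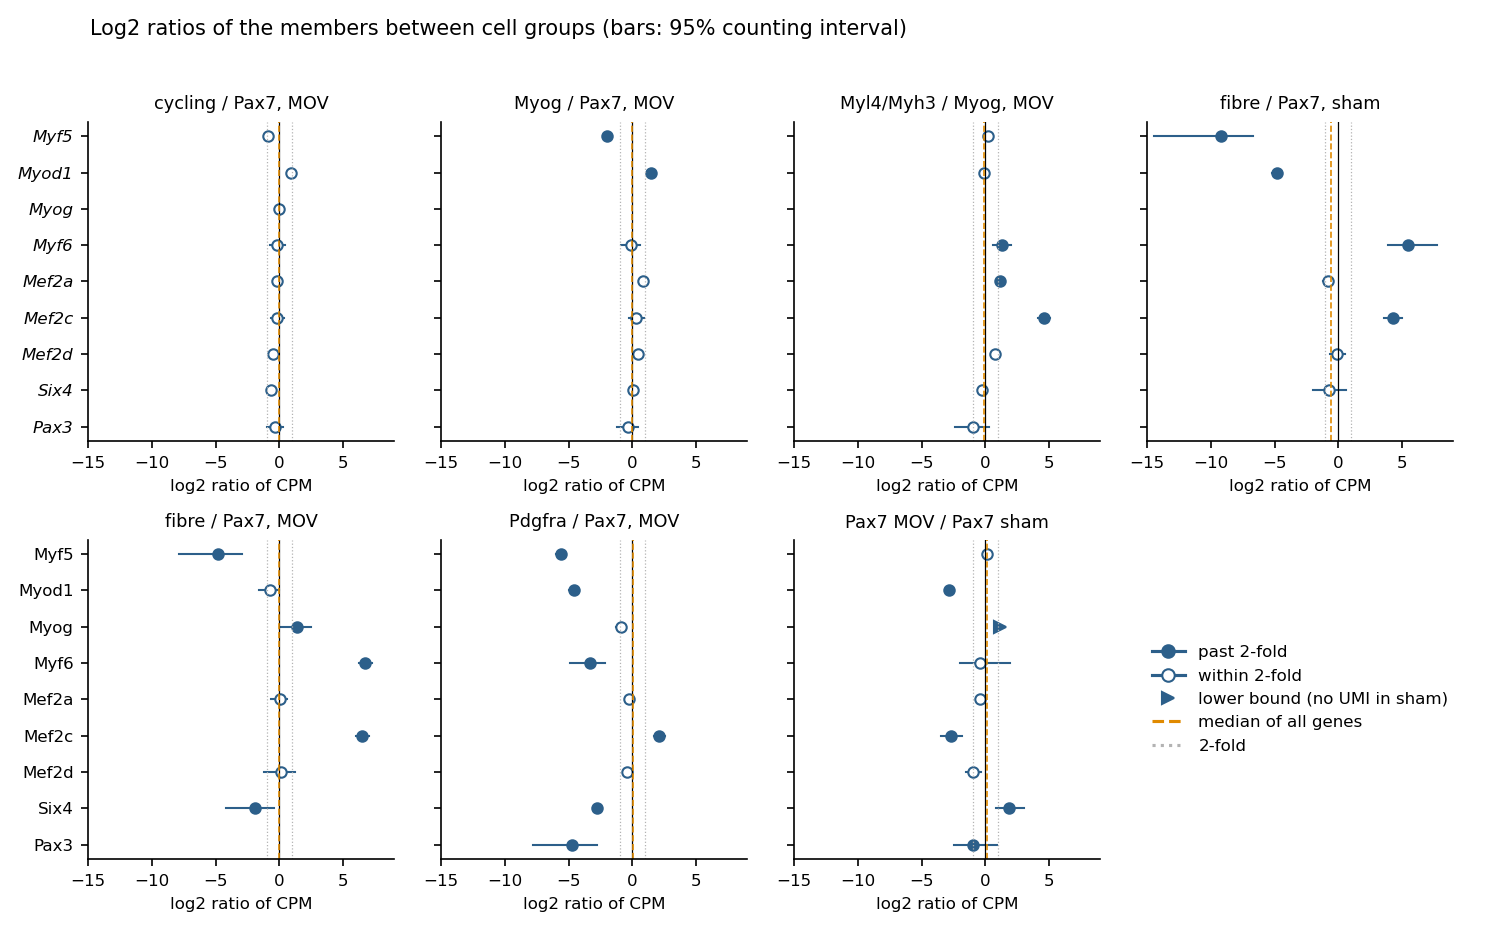
Log2 ratio of each gene in 7 comparisons of cell groups, with 95% counting intervals. Filled points lie past 2-fold (dotted lines), open points within it, triangles are bounds against a group without UMIs, and the dashed line is the median of all genes tested. Mef2c lies at 4.59 in Myl4/Myh3 against Myog cells and Myod1 at -2.82 in MOV against sham Pax7 cells.

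Mef2a and Mef2d were found in all MOV groups and in the sham groups of more than 1 cell, stromal cells included. Mef2a was highest in Myl4/Myh3 cells at 362 CPM and next in Myog cells at 161 CPM, and the other MOV groups lay between 74.4 CPM (70.2–78.8) in Pdgfra cells and 91.3 CPM (57.2–138) in fibre droplets, with Pax7 cells at 89.9 CPM (84.5–95.6) and cycling Pax7 cells at 79.6 CPM (75.9–83.4). Fibre droplets overlap all 3 of the others in that range, and Pdgfra overlap cycling Pax7 cells. In sham it was at 118 CPM (91.8–149) in Pax7 cells, 99.4 CPM (71.3–135) in Pdgfra cells, 86.3 CPM (60.1–120) in cycling Pax7 cells and 67.2 CPM (57.9–77.6) in fibre droplets, each overlapping the next. Mef2d was at 58.8 CPM (52.9–65.3) in Myl4/Myh3 cells and 34.7 CPM (30.5–39.2) in Myog cells of MOV. Fibre droplets at 29 CPM (11.7–59.8), Pax7 cells at 26.2 CPM (23.3–29.3), Pdgfra cells at 19.9 CPM (17.7–22.2) and cycling Pax7 cells at 18.6 CPM (16.8–20.4) followed, where each neighbour overlaps the next except Pax7 and Pdgfra cells. In sham it was at 53.3 CPM in Pdgfra cells, 50.4 CPM in Pax7 cells, 47 CPM (39.3–55.8) in fibre droplets and 17.3 CPM (6.94–35.6) in cycling Pax7 cells, and only the last pair does not overlap.

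Six4, a homeobox gene whose protein acts with Eya proteins, was at like levels in Myog cells (49.4 CPM, 44.4–54.8), Pax7 cells (48.2 CPM, 44.2–52.4) and Myl4/Myh3 cells (41.9 CPM, 36.9–47.4) of MOV, whose neighbouring intervals overlap. Cycling Pax7 cells were lower at 31.1 CPM (28.8–33.5), fibre droplets held 12.4 CPM (2.57–36.4) from 3 UMIs, and Pdgfra cells held 7.19 CPM (5.93–8.65). In sham the order was cycling Pax7 cells at 49.3 CPM (30.1–76.2), Pax7 cells at 13.5 CPM (5.81–26.5), fibre droplets at 7.95 CPM (4.98–12) and Pdgfra cells with 0 UMIs, and Pax7 cells overlap fibre droplets. Six4 was found in 13.5% (10.8–16.6) of MOV Pax7 cells at 4000 UMIs, above the 3.45% (1.9–5.72) of Pdgfra cells, and in 1 of 61 sham Pax7 cells.

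Pax3 was low in all groups, although its level in MOV Pax7 cells lay above the 0.265 CPM that 3 counts would make. The sham library held 5 UMIs in all and the MOV library 142. In MOV it was at 3.36 CPM (2.38–4.61) in Pax7 cells, 2.62 CPM (1.99–3.38) in cycling Pax7 cells, 2.62 CPM (1.57–4.08) in Myog cells and 1.33 CPM (0.574–2.62) in Myl4/Myh3 cells, with overlapping neighbours, where 1 Myl4/Myh3 cell held 4 of the 8 UMIs. Pdgfra cells held 2 UMIs, or 0.127 CPM (0.0154–0.46), below all of these. Fibre droplets had 0 UMIs in both libraries, where 3 counts would make 12.4 CPM in MOV. At 4000 UMIs a Pax3 UMI was found in 1.42% (0.617–2.79) of MOV Pax7 cells and 0.246% of Pdgfra cells, and these intervals overlap.

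The stromal cells differed from Pax7 cells of MOV in most of the members. In Pdgfra cells 5 of 9 members were lower past 2-fold, where 11.6% of 12890 genes were lower, and 1 was higher, where 20.8% were. The lower members were Myf5 (-5.61), Myod1 (-4.58), Pax3 (-4.72, from 2 UMIs), Myf6 (-3.35) and Six4 (-2.74, -3.05 to -2.45). Mef2c was 4.33-fold higher (2.12, 1.70 to 2.56), and Mef2a and Mef2d lay within 2-fold. Myog lay within 2-fold at -0.89 (-1.29 to -0.50), both groups being capped by the Myog rule. Of the Pdgfra cells 18 of 408 also held Pax7.

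Genes known to act with, against or below these factors were followed as 3 lists. The lists were drawn up with earlier results of these data known, so their counts are a description only. Of 30 targets, which include fusion, acetylcholine receptor and sarcomere genes, 13 were higher and 0 lower in Myog than in Pax7 cells of MOV (median log2 ratio 0.77, all genes -0.04). Of all genes 8.24% were higher and 9.77% lower in this comparison. Actc1, cardiac actin of immature muscle, was at 270 against 11.7 CPM. Mymk was at 140 against 9.81 CPM and Mymx, the gene of the second fusion protein, at 54 against 3.36 CPM. In Myl4/Myh3 against Myog cells 22 of 30 were higher and 0 lower (median 2.28, all genes -0.08), with Tnnc1, the slow troponin C, at 977 against 8.53 CPM, the slow troponin I gene Tnni1 at 862 against 29 CPM and skeletal actin, Acta1, at 6180 against 288 CPM. Here 6.41% of all genes were higher and 4.00% lower. The rule of the Myl4/Myh3 cells itself used sarcomere genes, so it partly selects for the sarcomere genes among these targets. In cycling Pax7 cells 0 were higher and 1 lower of 30 (median -0.30), that gene being Cdkn1c at 68.2 against 165 CPM. The shares of all genes were 9.07% higher and 7.27% lower. In Pdgfra cells 28 of 30 were lower and 0 higher (median -2.66), where 11.6% of all genes were lower and 20.8% higher. The adhesion gene Cdh15 was at 4.52 against 223 CPM there and the receptor gene Chrna1 at 7 against 276 CPM.

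In fibre droplets targets were found on both sides of 2-fold. The fibre rule used adult myosins, so it too partly selects for sarcomere targets. Of 23 tested in sham, 15 were higher and 7 lower than in Pax7 cells (median 3.29), and of 30 in MOV 20 were higher and 8 lower (median 2.68). Of all genes 27.5% were higher and 43.3% lower in sham, and 14.4% and 26.9% in MOV. The lower targets were thus no more frequent than lower genes in general. Ckm, the muscle creatine kinase, was at 27635 against 590 CPM in sham and the myoglobin gene Mb at 2506 against 8.13 CPM in MOV, whereas Chrna1 was at 3.98 against 109 CPM and Cdkn1a at 12.3 against 378 CPM in sham. Between Pax7 cells of MOV and sham 10 targets were higher and 9 lower (median 0.10), where 17.4% of genes were higher and 10.5% lower. Cdkn1c was at 165 against 38.7 CPM, while Mb (8.13 against 553 CPM), Tnnc2 (85.9 against 834 CPM) and Ckm (75.9 against 590 CPM) were lower, along with the fibre gene sum of 670 against 3765 CPM in the same cells. The part of fibre RNA in the sham Pax7 cells in these values was not tested.

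Along the MOV myogenic groups, more of the 22 inhibitors of the myogenic factors were lower than higher. In cycling Pax7 cells 0 of 20 tested were higher and 3 lower (median -0.60), where 7.27% of all genes were lower, and in Myog cells 0 were higher and 4 lower (median -0.59), where 9.77% were lower. Msc, which encodes the bHLH repressor musculin, was at 245 CPM in Pax7 cells, 117 CPM in cycling Pax7 cells, 82.7 CPM in Myog cells and 35.4 CPM in Myl4/Myh3 cells of MOV. The Notch target Hes1 was at 50.2 against 110 CPM, and Mdfic, of a family that binds myogenic factors, at 31.7 against 84.6 CPM, in Myog against Pax7 cells. In Myl4/Myh3 against Myog cells 1 of 20 was higher, Bhlhe41 at 34.9 against 16.1 CPM, and 5 lower, among them the deacetylase gene Hdac4 at 9.47 against 23.7 CPM (median -0.34), where 6.41% of all genes were higher and 4.00% lower. In sham fibre droplets 11 of 14 were lower and 1 higher (median -4.73), with Id3, an inhibitor that withholds E proteins, at 6.87 against 1170 CPM, and in MOV 11 of 20 were lower and 0 higher (median -1.24). Of all genes 43.3% were lower and 27.5% higher in sham, and 26.9% and 14.4% in MOV. In Pdgfra cells 4 of 21 were higher and 6 lower (median -0.49), where 20.8% of all genes were higher and 11.6% lower. Twist1, a repressor expressed in mesenchymal cells, was at 94.6 against 4.24 CPM and Id1 at 19.4 against 229 CPM. Between the Pax7 cells of the libraries 4 of 20 were higher and 4 lower (median -0.02), with Snai2 at 61 against 16.8 CPM and Id2 at 92.1 against 230 CPM in MOV against sham. The shares of all genes were 17.4% higher and 10.5% lower.

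Few of the 24 partners lay past 2-fold along the MOV myogenic groups, near the shares of all genes. In cycling Pax7 cells 1 of 21 tested was higher and 1 lower (median -0.11), in Myog cells 1 of 20 was higher and 3 lower (median -0.03), and in Myl4/Myh3 cells 1 of 19 was higher and 0 lower than in Myog cells (median -0.31). Over all genes, 9.07% were higher and 7.27% lower in the first comparison. These shares were 8.24% and 9.77% in the second and 6.41% and 4.00% in the last. The gene that was higher in all 3 was Tead4, a muscle TEAD factor, at 0.442 CPM in Pax7 cells, from 5 UMIs, 1.24 CPM in cycling Pax7, 7.16 CPM in Myog and 28.6 CPM in Myl4/Myh3 cells. In sham fibre droplets 2 of 14 were higher and 8 lower (median -1.02), among them the E protein genes Tcf4 at 16.6 against 436 CPM and Tcf12 at 6.14 against 52.1 CPM, with Smarcd3, a chromatin remodelling subunit of muscle, higher at 118 against 8.41 CPM. Of all genes 27.5% were higher and 43.3% lower there. In MOV fibre droplets 1 of 18 was higher and 7 lower (median -0.57), where 14.4% of all genes were higher and 26.9% lower. In Pdgfra cells 3 of 21 were higher and 7 lower (median -0.43), where 20.8% of all genes were higher and 11.6% lower. The Eya cofactors differed in direction there, Eya1 being at 0.509 against 31.2 CPM and Eya2 at 11.1 against 0.884 CPM. In MOV against sham Pax7 cells 4 of 18 were higher and 0 lower (median 0.25), with Tcf12 at 121 against 52.1 CPM, and 17.4% of all genes were higher, so that count is near the background.

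Over the 9 groups of at least 20 cells, which share the 2 libraries and differ in depth, some members had like patterns. Pearson's r of log2(CPM + 1) was 0.85 between Myf5 and Myod1, 0.81 between Myf5 and Six4, 0.83 between Myf6 and Mef2c and 0.77 between Myog and Mef2a. It was 0.92 between Myf5 and Pax7, whose UMIs also set some of the groups. Myf5 and Myod1 were both lowest in the fibre droplets and Pdgfra cells of each library. From Pax7 to Myog cells of MOV they ran in opposite directions, which this r does not show. Of 10502 genes, the most like Myf5 were Upp1 (0.988), Drp2 (0.983) and Met (0.979), and the most like Myod1 were Chchd4 (0.97), Asb5 (0.965) and Abt1 (0.963). Myog was most like Mymx (0.983), Fyttd1 (0.965) and Tnnt2 (0.962), and Myf6 most like Scnm1 (0.989), 2310002L09Rik (0.986) and Prss36 (0.985). Mef2a was nearest to Ablim3 (0.941), Sypl (0.929) and Strn3 (0.923), Mef2c to Atcayos (0.952), Pick1 (0.944) and Pde4dip (0.94), Mef2d to Cbfa2t3 (0.908), Fam53b (0.884) and Cdip1 (0.855), and Six4 to Eif3m (0.988), Yae1d1 (0.98) and Ube2j2 (0.98). With 9 points and so many genes, values of this size are a description only, and Pax3, with 130 UMIs over these groups, was too low for such a list.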

How the data were processed

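The samples were 2 libraries, sham and MOV, 1 per condition, each deposited as a matrix of whole-number UMI counts per gene and cell, which the authors made from the reads without normalization. The submitters' processing notes name Cell Ranger 6.0.0, mm10, R 4.0.2 and Seurat 4.0.2. The deposited matrices hold 1100 sham and 3854 MOV cells, with a median of 4116.5 and 16836 UMIs per cell.

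The members and lists were chosen with earlier results of these data known. Droplets whose mitochondrial share reached 10% were left out, together with the 4 sham and 75 MOV droplets with the highest scrublet doublet scores (scanpy 1.11.5; 0.8% per 1000 cells in each library). Groups were assigned in this order: fibre droplets (Myh1, Myh2 and Myh4 together at 3 or more UMIs, 1000 or more CPM and above Myl4 plus Myh3), Myl4/Myh3 cells (3 or more UMIs and 200 or more CPM of that pair), Myog cells (3 or more UMIs and 100 or more CPM), Pdgfra cells (2 or more UMIs and above Pax7), cycling Pax7 cells (1 or more Pax7, 3 or more Mki67 plus Top2a UMIs) and Pax7 cells (1 or more).

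UMIs were summed per group, and a gene with 20 or more summed UMIs was compared by its log2 ratio of CPM and called past 2-fold. Intervals of levels are exact Poisson, those of ratios and shares Clopper-Pearson. A group at 0 was set at 3 counts over the group. Shares were taken after thinning to 4000 UMIs. All 9 members are named, and from each list up to 3 genes past 2-fold in each direction whose interval lay farthest from no change, of which the text gives a choice, plus the 3 genes with the highest r per member. The split of Pax7 cells at 5% mitochondrial UMIs, and Cdkn1c, Cdkn1a and Mymk in the split by division genes, were chosen after their values were seen. Alternatives were other filters, gates, depths and folds, and, in R 4.3.3, scaling by the TMM factors of edgeR 4.0.16 or by the size factors of DESeq2 1.42.0. Calculations used Python 3.11.15, numpy 2.4.6, scipy 1.17.1 and pandas 2.3.3, and figures matplotlib 3.10.9. The scripts were tested on simulated counts.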

Additional observations from a re-analysis of the deposited data

Results flagged for a closer look

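For 2 members the ratio of fibre droplets to Pax7 cells lay on opposite sides of no change in the libraries. The log2 ratio of Mef2a was -0.81 (-1.21 to -0.39) in sham and 0.02 (-0.66 to 0.63) in MOV, and that of Mef2d was -0.10 (-0.68 to 0.52) in sham and 0.15 (-1.18 to 1.21) in MOV. All 4 ratios lay within 2-fold, 3 of the 4 intervals cover no change, and the difference between the libraries was not tested. The sham ratio of Mef2d was 0.51 by TMM and 0.46 by median of ratios, on the same side as the MOV ratio.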

How the results depend on the processing

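Of 825 member ratios recomputed over 14 other settings, 779 kept their side of 2-fold, 32 passed 2-fold only under the alternative, 14 no longer passed it and none past 2-fold reversed. Within 2-fold, 26 ratios had the other sign under the alternative, among them Myod1 in MOV fibre droplets against Pax7 cells (0.41 with stricter gates). The count of members past 2-fold between MOV and sham Pax7 cells was 2 in place of 5 with a 5% mitochondrial limit, which left 19 sham Pax7 cells, and 3 with looser gates. At 1.5-fold it was 3 in place of 0 for cycling Pax7 cells against Pax7 cells and 5 in place of 3 for Myl4/Myh3 against Myog cells. The share of sham Pax7 cells with both Myf5 and Myod1 was 5.26% with the 5% limit, 4.62% at 2000 UMIs and 32.3% at 8000 UMIs, in place of 18%. That of MOV Pax7 cells was 3.56% at 2000 UMIs, 18.5% at 8000 UMIs and 32.3% without thinning, in place of 8.9%. The share of Myog cells with Mki67 or Top2a was 30.6% without a mitochondrial limit, 26.7% with stricter gates, 25% at 2000 UMIs and 64.3% without thinning, in place of 38.7%. The share with Myod1 was 35.4%, 71.2% and 89.9% at 2000 UMIs, at 8000 UMIs and without thinning, in place of 52.1%, and that with Pax7 was 24.4% and 61.9% at 8000 UMIs and without thinning, in place of 12.3%. Depth itself sets the shares; for the gates and the mitochondrial limit the cause was not tested. Single members near 2-fold moved across it: Myf6 in Myl4/Myh3 against Myog cells was at 0.99 with looser gates, Mef2a there at 0.98 with stricter gates, and Mef2d in MOV against sham Pax7 cells at -1.09 by TMM and -1.13 by median of ratios. The settings that left out shared barcodes were chosen after seeing the data. No paired analysis was possible because each condition was 1 library. Leaving out replicates was not possible for the same reason. Depth limits genes of a few UMIs, such as Pax3 in sham, and the number of cells limits the sham cycling Pax7 cells (8 cells, 5 of them with shared barcodes).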
